A study of Mus musculus with 4 samples.

Results

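RNA polymerase II (Pol II) occupancy was examined at 10 genes of vascular endothelial growth factor (VEGF) and Tie receptor signalling: Kdr, Flt1, Flt4, Nrp1, Nrp2, Plxnd1, Vegfa, Tek, Tie1 and Angpt2. The genes were chosen by name, with earlier results of these data known, and they are 10 of the 21951 protein-coding genes in the mm10 annotation. For each gene, the peaks of every library were collected that lay within 1500 bp of an annotated transcription start site (TSS), called promoter peaks here, in the gene body, or in a window reaching 50 kb beyond both ends of the gene.

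The study asked how loss of the transcription factor KLF4 from endothelial cells (ECs) relates to ageing of the brain vasculature. Pol II ChIP-seq was run on 200000 flow-sorted brain ECs per library, with chromatin cut by micrococcal nuclease. The old WT Cre group (2 libraries) came from mice of 20 to 23 months that carried the Cdh5-driven, tamoxifen-inducible CreERT2 and intact Klf4. The young EC-K4KO group (2 libraries) came from mice of 4 to 6 months in which the same driver had removed floxed Klf4. All mice were on the C57BL/6J background and received tamoxifen, at 8 weeks in EC-K4KO mice. Genotype and age differed together, and young WT Cre and old EC-K4KO libraries were not analysed here, so their parts in any difference cannot be told apart. Whether a library held cells of 1 animal or of several was not given in the sources used here, so p-values measure the spread between these libraries and nothing wider.

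VEGF-A is the main growth signal for blood vessels. It acts on ECs through the receptor tyrosine kinases VEGFR2 (Kdr) and VEGFR1 (Flt1), while VEGFR3 (Flt4) mainly serves lymphatic and sprouting vessels. The neuropilins Nrp1 and Nrp2 are co-receptors that VEGF shares with the semaphorins, and Plxnd1 is a semaphorin receptor of ECs. Tek encodes Tie2, the angiopoietin receptor that holds vessels quiescent, Tie1 is its partner receptor, and Angpt2 is the EC-made ligand that loosens this hold. In brain ECs, both systems bear on the tightness of the blood-brain barrier.

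The 4 libraries, called old WT 1 and old WT 2 (replicates 1 and 2 of old WT Cre) and young KO 1 and young KO 2 (those of young EC-K4KO), differed widely in depth and list length. Old WT 1 and old WT 2 held 65734178 and 27455452 fragments with 78851 and 39674 peaks, and young KO 1 and young KO 2 held 35227929 and 22705175 fragments with 35638 and 235591 peaks. The lowest pileup in a list, the height below which no peak was listed, was 0.198, 0.291, 0.255 and 0.308 in the same order, in fragments over the summit per 1000000 fragments of the library (FPM). A gene without a peak is therefore below detection in that library, not free of Pol II, and less Pol II per cell cannot be told apart from fewer cells with Pol II at the gene. Of 12 EC markers, 3, 4, 0 and 8 had a promoter peak in the 4 libraries. These shares of 25%, 33.3%, 0% and 66.7% stand beside 25.6%, 24.5%, 10.6% and 67.5% of all protein-coding genes in the same order. Young KO 1 thus listed a promoter peak at none of the EC markers. The summed promoter pileup of those 12 genes was 0.913 and 2.40 FPM in old WT Cre libraries against 0 and 9.60 in young EC-K4KO libraries. Cdh5 made up 0.335 and 0.947 of the old WT Cre sums and 3.44 of that of young KO 2. Whether the Cdh5-driven transgene added to the Cdh5 signal was not tested. Markers of mural cells had promoter peaks at 3, 0, 2 and 5 of 8 genes, with sums of 0.882 and 0 against 0.681 and 4.18. Microglial markers had them at 3, 1, 0 and 5 of 6 genes (1.05 and 0.437 against 0 and 3.22) and astrocyte markers at 2, 0, 1 and 3 of 6 (0.517 and 0 against 0.369 and 2.73). Neuronal markers had them at 0, 1, 0 and 5 of 6 genes (0 and 0.473 against 0 and 3.88) and oligodendrocyte markers at 1, 1, 0 and 5 of 6 (0.274 and 0.510 against 0 and 4.05). No marker of any list had a promoter peak in all 4 libraries. The part of other cell types in the values below was not tested.

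The stretches of DNA that peaks of several libraries had in common are shown first, because they are where the libraries listed peaks at the same bases. Most merged stretches near these genes had a peak in 1 library alone. Each is given 5′ to 3′ on the strand of its gene, from the GRCm38.p6 (mm10) reference, with the bases common to the peaks of all the libraries named in capitals and up to 20 flanking bases in lower case. At the receptors and co-receptors, the shared promoter stretches shown are chr5:75978666-75978868 upstream of Kdr (old WT 2 and young KO 2), chr5:147726439-147726552 upstream of Flt1 (both old WT Cre replicates, 114 of 300 common bases) and chr1:62703066-62703284 before Nrp2 (old WT 1 and young KO 2). The other common bases of Flt1, and 33 of the 35 common bases at the Nrp1 promoter, lie in untranslated exons of predicted RefSeq transcripts. Those Flt1 bases and the Nrp1 stretch are not printed:
Kdr upstream: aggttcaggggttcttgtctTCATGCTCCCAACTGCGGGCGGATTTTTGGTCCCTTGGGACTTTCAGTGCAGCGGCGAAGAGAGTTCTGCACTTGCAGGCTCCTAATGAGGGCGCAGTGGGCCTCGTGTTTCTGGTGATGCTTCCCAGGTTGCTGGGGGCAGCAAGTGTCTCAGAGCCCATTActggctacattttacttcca
Flt1 upstream: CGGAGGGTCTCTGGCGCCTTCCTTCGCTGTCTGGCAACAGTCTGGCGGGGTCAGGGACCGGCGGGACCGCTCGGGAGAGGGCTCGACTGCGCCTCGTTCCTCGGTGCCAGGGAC
Nrp2 upstream: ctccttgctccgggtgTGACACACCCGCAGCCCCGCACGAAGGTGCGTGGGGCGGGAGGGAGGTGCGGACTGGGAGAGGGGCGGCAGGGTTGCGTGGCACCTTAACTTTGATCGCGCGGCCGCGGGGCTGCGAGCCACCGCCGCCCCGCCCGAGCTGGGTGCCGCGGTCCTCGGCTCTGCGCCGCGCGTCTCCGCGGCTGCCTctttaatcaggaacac

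Flt4, Tek and Angpt2 had no promoter stretch common to several libraries, and a shared stretch inside the gene is shown instead. These were the introns at chr11:49618406-49618627 in Flt4 (old WT 1 and young KO 2), chr4:94817209-94817388 in Tek (both old WT Cre replicates and young KO 1) and chr8:18697153-18697301 in Angpt2 (both old WT Cre replicates). A further Angpt2 stretch, of old WT 2 and young KO 2, lies in an untranslated exon of a predicted Mcph1 transcript and is not printed:
Flt4 intron: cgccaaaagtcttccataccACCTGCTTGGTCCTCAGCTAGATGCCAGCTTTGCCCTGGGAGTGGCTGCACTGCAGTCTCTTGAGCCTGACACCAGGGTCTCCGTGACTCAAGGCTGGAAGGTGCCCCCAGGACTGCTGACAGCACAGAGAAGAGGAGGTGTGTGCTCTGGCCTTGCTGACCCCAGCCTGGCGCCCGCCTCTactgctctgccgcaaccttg
Tek intron: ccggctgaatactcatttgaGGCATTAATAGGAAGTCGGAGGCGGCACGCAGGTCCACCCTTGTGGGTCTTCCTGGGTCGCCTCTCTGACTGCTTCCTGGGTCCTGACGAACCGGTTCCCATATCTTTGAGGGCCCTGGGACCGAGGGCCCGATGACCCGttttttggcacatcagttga
Angpt2 intron: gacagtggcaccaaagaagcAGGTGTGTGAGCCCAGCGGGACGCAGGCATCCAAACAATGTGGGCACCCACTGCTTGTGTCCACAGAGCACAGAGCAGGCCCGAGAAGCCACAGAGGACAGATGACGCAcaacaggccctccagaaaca

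Outside the genes, 2 stretches shared by 3 libraries and nearest to the TSS of a member gene were added after their values were seen. They lay at chr1:62664845-62665042, upstream of Nrp2, and chr17:46039829-46039973, upstream of Vegfa:
Nrp2 distal: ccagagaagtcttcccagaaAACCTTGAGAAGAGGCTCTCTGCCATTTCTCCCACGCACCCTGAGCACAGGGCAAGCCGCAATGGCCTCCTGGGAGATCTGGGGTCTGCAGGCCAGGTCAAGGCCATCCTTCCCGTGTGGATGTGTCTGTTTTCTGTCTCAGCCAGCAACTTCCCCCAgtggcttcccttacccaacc
Vegfa distal: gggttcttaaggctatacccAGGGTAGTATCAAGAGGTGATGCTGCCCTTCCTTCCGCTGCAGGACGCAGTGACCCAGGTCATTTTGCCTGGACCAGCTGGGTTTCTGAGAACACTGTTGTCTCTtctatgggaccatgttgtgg

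Promoter peaks were found at 7 of the 10 genes in at least 1 library, and at none of the 10 in all 4 libraries. Old WT 1 and young KO 2 each had promoter peaks at 6 genes, old WT 2 at 2 and young KO 1 at 1. Over all protein-coding genes, 25.6%, 24.5%, 10.6% and 67.5% had a promoter peak in old WT 1, old WT 2, young KO 1 and young KO 2. The share among the 10 genes, 60%, 20%, 10% and 60%, was thus above that background in old WT 1 and within 1 gene of it in the other 3 libraries. Kdr and Flt1 had a promoter peak in both old WT Cre replicates (2 of 10 genes, background 10.1%), and Nrp1 had one in both young EC-K4KO replicates (1 of 10, background 9.14%). Kdr, Flt1 and Nrp1 were also the 3 genes with promoter peaks in at least 3 libraries (background 13.1%). No member had promoter peaks in all 4 libraries (background 2.22%), in both old WT Cre and neither young EC-K4KO replicate (background 0.784%), or in both young EC-K4KO and neither old WT Cre replicate (background 3.12%). Vegfa, Tek and Tie1 had a promoter peak in no library (3 of 10, background 25.4%).

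**Figure D1:**
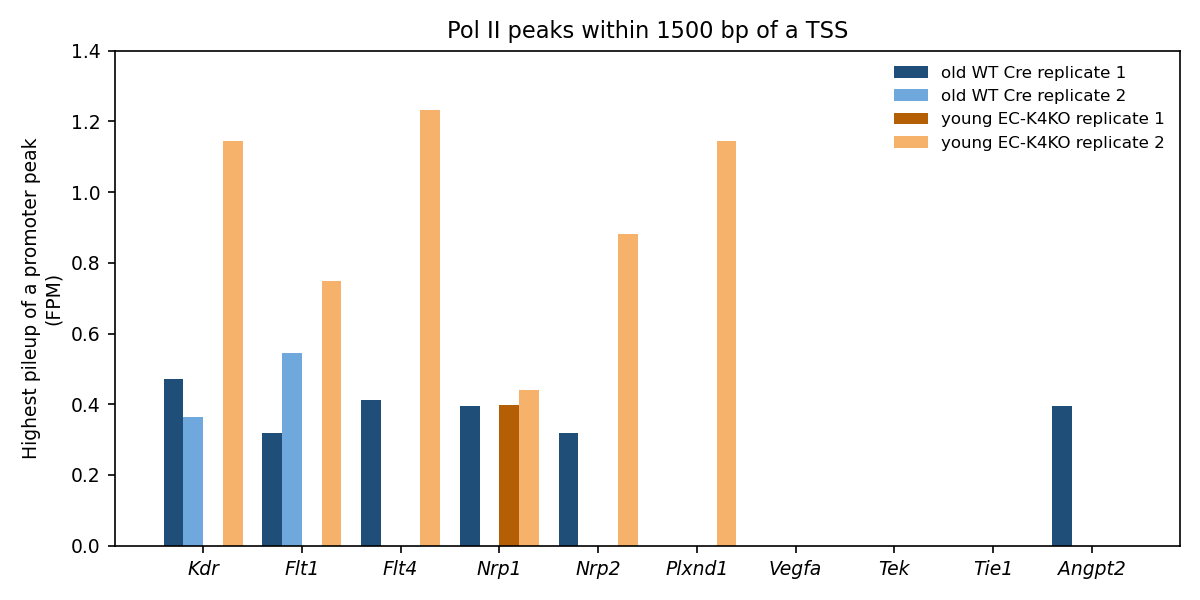
Highest pileup of a promoter peak (y axis, FPM) at each of the 10 genes (x axis) in the 4 libraries; a missing bar means that the library listed no promoter peak for that gene. Kdr, Flt1 and Nrp1 carry 3 bars each, Vegfa, Tek and Tie1 none, and no gene carries 4.

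Among the VEGF receptors, Kdr had promoter peaks in 3 libraries. Its highest promoter peak reached 0.472 FPM in old WT 1, 0.364 in old WT 2 and 1.15 in young KO 2, with no promoter peak in young KO 1. The enrichment over local background was 6.01-fold, 4.10-fold and 7.88-fold. The peaks fell at 2 places on either side of the TSS. Summits lay 184 bp and 143 bp downstream, in the first exon, in old WT 1 and young KO 2, and 252 bp and 158 bp upstream in old WT 2 and young KO 2. The last 2 peaks share the stretch shown above, which holds the summit of old WT 2 but not that of young KO 2. Both old WT Cre replicates thus had a Kdr promoter peak but on opposite sides of the TSS, while young KO 2 had both. The exonic stretch, with 180 common bases, lies in an untranslated region and is not printed.

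Flt1, which encodes the decoy-like receptor VEGFR1, was the gene whose promoter region both old WT Cre replicates marked at the same bases. Its highest promoter peak stood at 0.319 and 0.546 FPM in old WT 1 and old WT 2, with summits 538 bp and 455 bp upstream, and at 0.749 in young KO 2, with its summit 887 bp downstream. Old WT 1 had a further peak of 0.304 FPM with its summit 382 bp downstream of the TSS. That peak and the one of young KO 2 had 74 bases in common, so Flt1 had a second shared promoter stretch, downstream of the TSS. Young KO 1 had a peak of 0.539 FPM with its summit 1635 bp upstream, just outside the promoter window. With a promoter window of 3000 bp in place of 1500 bp, Flt1 had a promoter peak in all 4 libraries and was the 1 member that did.

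Flt4, the VEGFR3 gene, had promoter peaks of 0.411 FPM in old WT 1 and 1.23 in young KO 2, and none in the other libraries. The summits lay 229 bp and 1037 bp downstream of the TSS, so the 2 peaks did not overlap. Flt4 was also the 1 gene without any peak in its whole 50 kb window in a library, young KO 1.

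Among the co-receptors, Nrp1 had the promoter peaks closest in height. Its highest promoter peak was 0.396 FPM in old WT 1, 0.397 in young KO 1 and 0.440 in young KO 2, with none in old WT 2. The young EC-K4KO mean was 0.419 ± 0.0304 (SD, n = 2). The summits were spread along the promoter, at 688 bp upstream and 769 bp downstream in old WT 1, 901 bp upstream and 70 bp downstream in young KO 1, and 414 bp upstream in young KO 2. The 5 Nrp1 promoter peaks shared bases in 1 pair alone, 35 bases upstream of the TSS used here, that of the protein-coding transcript. Those bases lie inside the Nrp1 gene record, since other transcripts of the gene start farther upstream. The same set of libraries with a promoter peak as at Nrp1 was found at 404 protein-coding genes (1.84%), against 1536 genes (7.0%) for the set of Kdr and Flt1.

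Nrp2 had promoter summits at nearly the same base in both libraries that listed one. Its promoter peaks, 0.319 FPM in old WT 1 and 0.881 in young KO 2, had summits 187 bp and 189 bp upstream of the TSS. They had 187 bases in common, while the other 2 libraries listed no promoter peak. The set of libraries was the same as that of Flt4 and was found at 2279 protein-coding genes (10.4%).

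Plxnd1 had promoter peaks in young KO 2 alone, at 1060 bp downstream (1.15 FPM) and 124 bp upstream (1.01). In that library a promoter peak was the common state of a gene, and 6705 genes (30.5%) had promoter peaks in that library and no other.

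Of the ligands and Tie receptors, Angpt2 alone had a promoter peak. It reached 0.396 FPM in old WT 1, 1188 bp downstream of the TSS, and 660 genes (3.01%) likewise had a promoter peak in that library alone. The nearest body peak of Vegfa was that of young KO 2, with 1.01 FPM at a summit 1593 bp downstream of a TSS. Tek and Tie1 had their nearest summits much farther off, at 13.2 kb and 3.1 kb. All 3 genes without a promoter peak nonetheless had peaks in their windows in every library.

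Across the 7 genes, 20 promoter peaks were listed, 10 with summits upstream and 10 with summits downstream of the TSS, at a median distance of 398 bp. Their pileups ran from 10 to 31 fragments and their enrichments from 3.29-fold to 7.88-fold (median 4.19). Within its own list, the highest promoter peak of a gene lay between the percentiles 18.2 (Kdr in old WT 2) and 97.6 (Flt4 in young KO 2) of pileup. The −log10 q values ran from 2.49 to 15.1. No member had a promoter value in all 4 libraries, so the group comparison of promoter pileup could not be made for any of the 10 genes. The promoters themselves, taken as the 300 bases around the RefSeq TSS nearest to a peak, were found for 9 genes, all but Angpt2. They were searched on both strands for an ETS motif (CCGGAAGT), a KLF motif (CCACNCCC), a FOX motif (TGTTTAC) and a hypoxia element (ACGTGC). The KLF motif occurred 3 times at Kdr, 4 times at Plxnd1 and 1 time at Tie1 (3 of 9 promoters, against 19.7% of 16522 protein-coding promoters), with matches that overlap each other counted separately. The ETS, FOX and hypoxia letters occurred at 0 of the 9, against 5.52%, 2.97% and 6.51% of all promoters.

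Within the gene bodies, peaks were found at 9 genes in old WT 1, 4 in old WT 2, 5 in young KO 1 and 10 in young KO 2, against 54.9%, 44.4%, 31.0% and 83.0% of all protein-coding genes. The 10 gene bodies, 775 kb in all, held 34, 13, 7 and 98 peaks, or 4.39, 1.68, 0.903 and 12.6 per 100 kb. All protein-coding genes held 3.65, 1.92, 1.36 and 11.0 per 100 kb, so the density at the members was above that of all genes in old WT 1 and young KO 2 and below it in the other 2 libraries. Flt1, Nrp2 and Tek were the genes with a body peak in all 4 libraries (3 of 10, background 19.7%). Of the peaks whose summit itself lay in a body, 7 of 33, 2 of 13, 2 of 7 and 12 of 98 had it in an exon, where exons made up 7.79% of the bodies. These counts include promoter peaks in first exons, such as those of Kdr. The same share was not computed over all protein-coding genes, so enrichment in exons was not tested.

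Summed over the 4 libraries, Flt1 had the most body peaks, with 7 and 6 in old WT Cre against 2 and 27 in young EC-K4KO, along 164408 bp of gene. Angpt2, in a body of 51300 bp, had 8 and 3 against 0 and 9. It lies inside Mcph1, a gene read from the opposite strand, and the 2 genes' Pol II signal cannot be told apart in data without strand. Plxnd1 had 0 body peaks in 3 libraries and 8 in young KO 2. A body stretch with peaks in at least 3 libraries was found at Tek alone (1 of 10, background 13.8%), and one with peaks in 4 libraries at no member (background 3.09%).

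**Figure D2:**
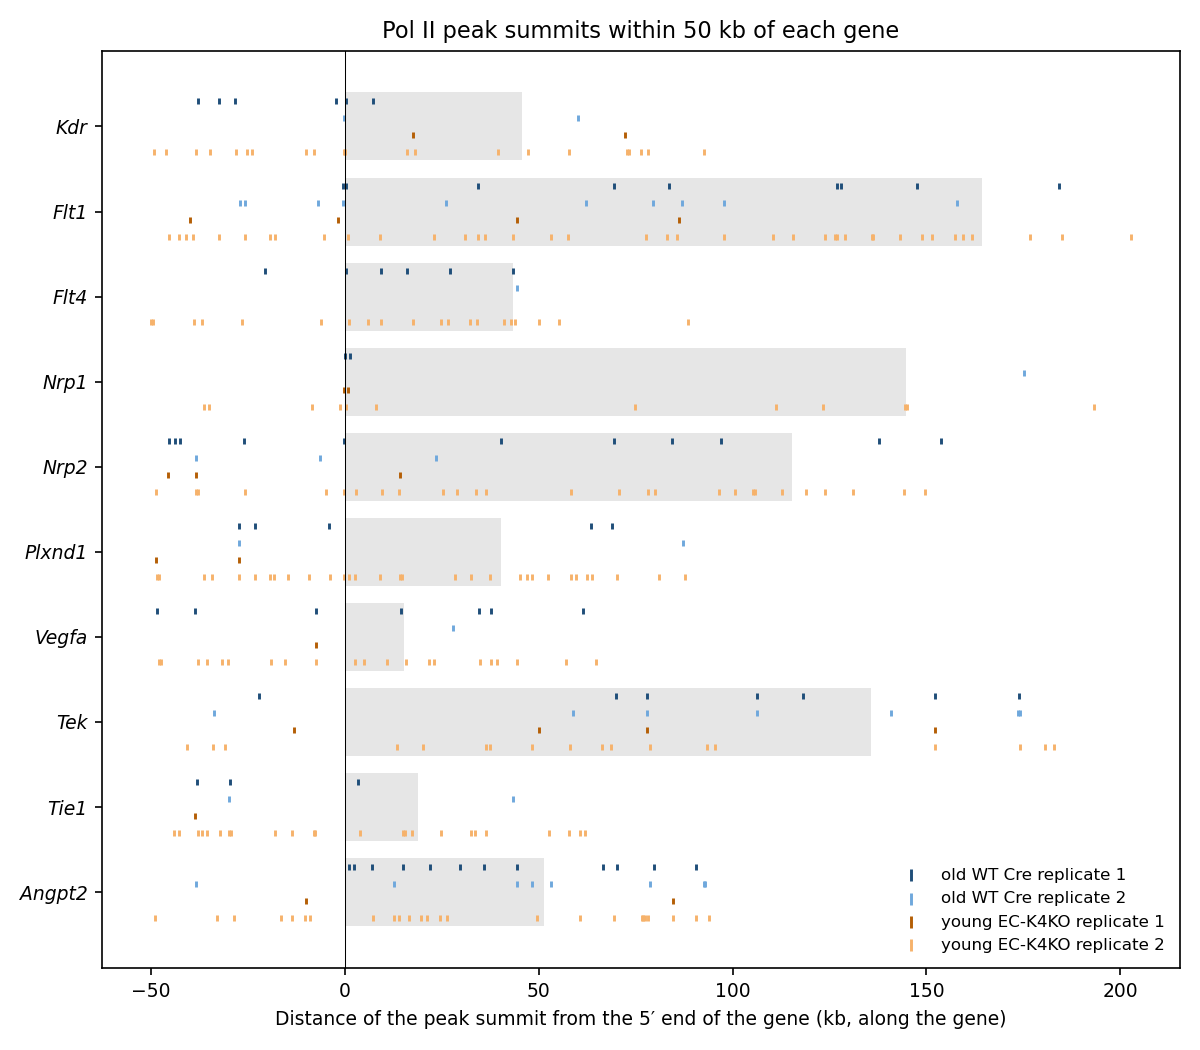
Summits of all peaks within 50 kb of each gene (ticks), by distance from the 5′ end of the gene record along the gene (x axis, kb) and by library (4 rows per gene, coloured); grey bars are the gene bodies. Young KO 2 places 238 of the ticks, and the 4 libraries line up at one place, upstream of Plxnd1.

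The 50 kb windows, 1.78 Mb in all, held 68, 37, 21 and 238 peaks, which is 8.62, 9.33, 5.89 and 10.1 per 10000 peaks of the list. The exact Clopper-Pearson 95% intervals were 6.70 to 10.9, 6.57 to 12.9, 3.65 to 9.01 and 8.86 to 11.5, and cover counting error only. The intervals overlap, but that of young KO 1, which had the fewest peaks near these genes, reaches that of young KO 2 only narrowly (9.01 against 8.86). Overlap does not show that the shares are equal, and the libraries were not tested against each other. Per Mb the windows held 38.3, 20.8, 11.8 and 134 peaks, against 29.7, 15.0, 13.4 and 88.8 for the whole genome.

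Angpt2 was the gene with a larger share of the list in both old WT Cre replicates than in either young EC-K4KO replicate. It had 1.52 and 2.02 peaks per 10000 in old WT Cre against 0.561 and 1.06 in young EC-K4KO, from 12, 8, 2 and 25 peaks. The means were 1.77 ± 0.350 and 0.811 ± 0.354 (SD, n = 2 each), and the difference of 0.958 gave p = 0.3333 in a two-sided exact permutation test, the smallest p that 2 libraries against 2 allow (adjusted p = 1 over all 21951 genes). Such a separation was seen at 1 of 10 members and at 16.9% of all genes. The highest peak of the Angpt2 window was nearest to the TSS of Mcph1 in every library. With peaks assigned to the nearest protein-coding TSS, the Angpt2 difference was 0.742.

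Nrp1 separated the other way, from few peaks. It had 0.254 and 0.252 peaks per 10000 in old WT Cre against 0.561 and 0.509 in young EC-K4KO, from 2, 1, 2 and 12 peaks (exact permutation p = 0.3333, adjusted p = 1). This was again 1 of 10 members, against 13.7% of all genes. When the lists were limited to peaks with q of at most 1e-05, the Nrp1 difference changed from −0.282 to 0.00448 per 10000. With the settings used here, the other 8 genes overlapped between the groups, with differences from −0.369 (Plxnd1) to 0.442 (Flt1) per 10000. Flt1 had 1.14 and 2.52 against 1.12 and 1.66, Kdr 0.761 and 0.504 against 0.561 and 0.891, and Tek 0.888 and 1.76 against 1.12 and 0.764. In lists of equal length the Tek groups separated too, with a difference of 1.12 per 10000 (exact permutation p = 0.3333), and Kdr, Plxnd1 and Vegfa separated under other settings.

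**Figure D3:**
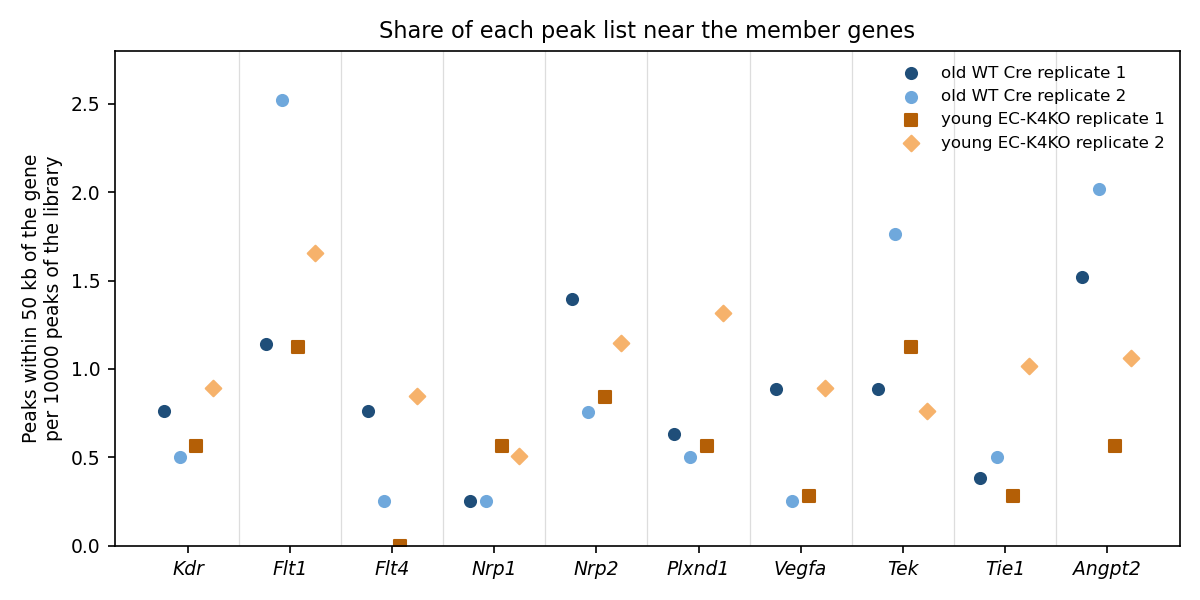
Peaks within 50 kb of each gene per 10000 peaks of the library (y axis) for the 10 genes (x axis); each point is 1 library, with blue for old WT Cre and orange for young EC-K4KO. The groups separate at Angpt2 (old WT Cre above) and Nrp1 (young EC-K4KO above) and overlap at the other 8 genes.

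The highest pileup in each window gave no member with both old WT Cre replicates above both young EC-K4KO replicates (0 of 9 genes with a value in every library, background 0.587%). The reverse was found at Nrp1 and Tie1 (2 of 9, background 21.1%). At Nrp1 the values were 0.396 and 0.364 FPM in old WT Cre against 0.397 and 0.925 in young EC-K4KO. At Tie1 they were 0.335 and 0.510 against 0.511 and 2.03, and none of the 4 peaks was nearest to Tie1. The highest lay 93 bp from the TSS of Elovl1, and the other 3 lay 7229, 7184 and 1360 bp from that of 2610528J11Rik, in the order of the libraries. Each gave p = 0.3333 in the exact permutation test and an adjusted p of 0.972. At both genes young KO 1 and the higher old WT Cre replicate were nearly equal, and without young KO 2 the difference between the groups was −0.0175 in place of −0.281 at Nrp1 and −0.0887 in place of −0.846 at Tie1. The separation was lost at both genes when the tallest peak of each library was taken out of its fragment total, with exact permutation p = 1 at Nrp1 and 0.6667 at Tie1. That peak held 14.6% and 15.3% of the fragments in old WT Cre against 3.36% and 1.73% in young EC-K4KO, so the FPM scale lowers every old WT Cre pileup more. The median of the highest pileups was 0.411, 0.546, 0.511 and 1.28 for the members and 0.426, 0.583, 0.483 and 1.15 for all genes, in the order of the libraries above.

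Of 321 merged stretches in the windows, 29 had peaks in 2 libraries, 5 in 3 and 1 in all 4, where the whole genome had 10.03%, 1.97% and 0.690% of its stretches in those classes. The 1 stretch of all 4 libraries lay 27.3 kb upstream of Plxnd1, on chromosome 6 from 116022019 to 116022433. It was the tallest peak in the Plxnd1 window in each library, with 1.84 and 1.13 FPM in old WT Cre against 1.22 and 2.42 in young EC-K4KO. The enrichments were 17.0-fold, 11.6-fold, 9.05-fold and 16.5-fold. The 4 summits lay between 27314 and 27346 bp upstream. Although the nearest protein-coding TSS is that of Plxnd1, these bases are annotated as an exon of Tmcc1, a neighbouring gene read from the same strand. This peak also made Plxnd1 the member with the highest window pileup in each of the 4 libraries.

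The 5 stretches of 3 libraries lay at Nrp2, Vegfa, Tie1 and, in 2 cases, Tek. The Nrp2 stretch, 38.3 kb upstream, had 0.510 FPM in old WT 2 and 0.341 and 0.484 in the young EC-K4KO replicates. The Vegfa stretch, 7.5 kb upstream, had 0.289 in old WT 1 and 0.568 and 0.705 in the young EC-K4KO replicates. The Tek stretch outside the gene, 152 kb from the TSS and nearer to Eqtn, had 0.304 in old WT 1 and 0.426 and 0.617 in the young EC-K4KO replicates. These 3 stretches thus had peaks in both young EC-K4KO replicates and in 1 old WT Cre replicate. The Tie1 stretch, 29.7 kb upstream and nearer to 2610528J11Rik, had no base common to its 3 libraries.

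The Tek stretches stood apart in sequence. The intron stretch shown above, 77.8 kb into the gene, had 0.411 and 0.401 FPM in old WT Cre and 0.511 in young KO 1, with no overlapping peak in young KO 2. All its common bases are soft-masked as repeats in the reference, and 24 of its 117 overlapping 24-base words occur 1 time in the genome, the median word occurring 1203 times. The 6 shared stretches in the Tek window were 97.2% to 100% masked, against over 50% masked in 2 of the 28 at the other members that had at least 24 common bases. Tek peak summits lay in masked bases for 6 of 7, 7 of 7, 3 of 4 and 9 of 18 peaks in the 4 libraries, where all peaks did so in 45.4%, 47.8%, 42.2% and 30.7%. Whether reads of other copies were placed at Tek was not tested. At the Plxnd1, Kdr, Flt1, Nrp2 and Vegfa stretches described above, every 24-base word occurs 1 time.

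The 36 other genes of the pathway, chosen by role, had promoter peaks at 13, 13, 3 and 31 genes in the 4 libraries, or 36.1%, 36.1%, 8.33% and 86.1%, beside 25.6%, 24.5%, 10.6% and 67.5% of all protein-coding genes. Gipc1, which encodes an adaptor that binds neuropilin, was the 1 gene of 36 with a promoter peak in all 4 (background 2.22%), at 0.319 and 0.546 FPM in old WT Cre against 0.539 and 0.617 in young EC-K4KO. Both old WT Cre replicates had promoter peaks at 7 of the 36 genes (background 10.1%), Gipc1, Svep1, Plcg1, Nck1, Pik3r1, Foxo1 and Hif1a, which encode among others the phospholipase and kinase subunits downstream of the receptors and a factor restrained by Tie2 signalling. Foxo1 had 0.274 and 0.765 FPM in old WT Cre and 1.28 in young KO 2, and Pik3r1 had 0.456 and 0.692 and, in young KO 2, 0.837. Hif1a, which encodes a hypoxia-responsive inducer of Vegfa, had 0.259 and 0.583, and 0.969 in young KO 2. Both young EC-K4KO replicates had them at 3 of 36, Gipc1, Pik3ca and Plxna2, a share of 8.33% near the background of 9.14%. Pik3ca, the catalytic subunit of the kinase, had 0.369 and 0.661 in young EC-K4KO and 0.656 in old WT 2. The angiopoietin Angpt1, Vegfd, Sema3c and Dok2 had a promoter peak in no library (4 of 36, background 25.4%).

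**Figure D4:**
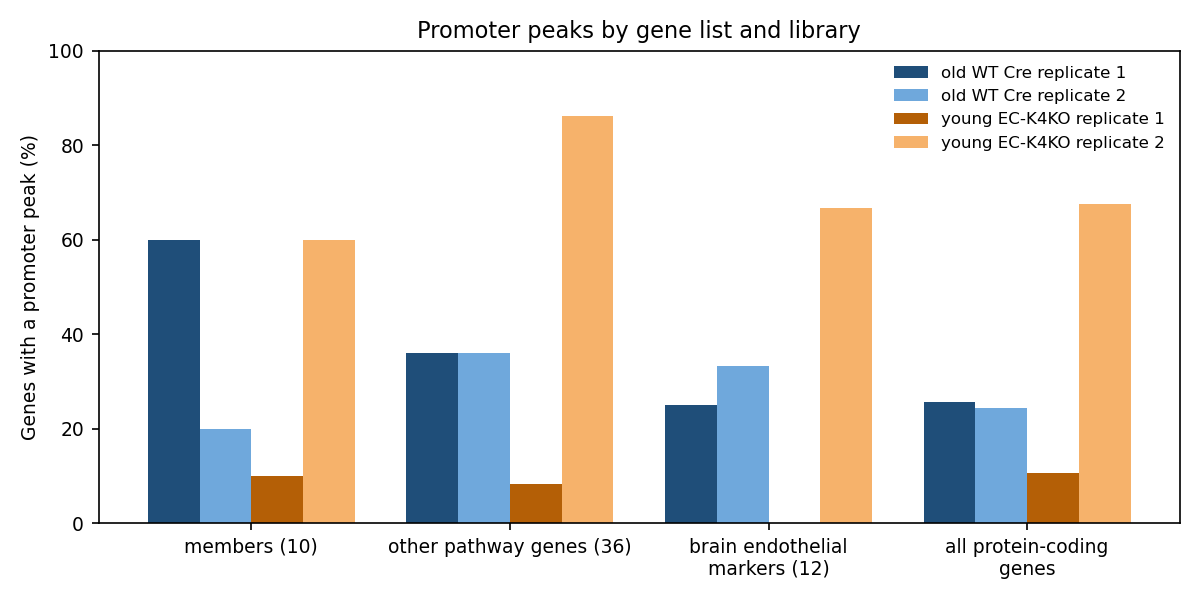
Share of genes with a promoter peak (y axis, %) in the 4 libraries for the 10 genes, the 36 other pathway genes, the 12 brain EC markers and all protein-coding genes. The members' share is 60%, 20%, 10% and 60%, and young KO 1 is the lowest library in every list.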

How the data were processed

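Pol II ChIP-seq peak lists of 4 libraries (2 old WT Cre, 2 young EC-K4KO) were used. Per the study's methods, the authors aligned reads to mm10 with Bowtie2, removed PCR duplicates and called peaks in each library with MACS2. Per the file headers, MACS 2.2.7.1 was run on paired fragments with a q cutoff of 0.01, no further removal of duplicates and no control, so neither copy number nor chromatin cutting bias was subtracted. The deposited tables give each peak's pileup (a signal, in fragments over the summit), its fold enrichment over local background (a ratio) and −log10 p and q values. The deposited fold enrichment, p and q values were used as given.

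Pileups were divided by the header's fragment total, per 1000000 fragments (FPM), and window counts by list length, per 10000 peaks. A peak was assigned to a region on sharing at least 1 bp with it. TSSs, exons and genes came from GENCODE M21 basic annotation of GRCm38 (mm10), and the sequences from GRCm38.p6 and RefSeq promoters. No peak ran past the end of a chromosome of that reference. In the order of the libraries, 381, 253, 375 and 494 peaks lay on sequence names not matched to it. Groups were compared with a two-sided exact permutation test of the difference in means (smallest p 0.3333), with Benjamini-Hochberg adjustment over all protein-coding genes that had a value in all libraries. Counts over the members had no test. The overlap code was tested on simulated peaks, all 400 of which were recovered. The 10 genes, the pathway list and the marker lists were chosen with earlier results of these data known. All 10 members are named. A pathway gene is listed by name where both replicates of a group had a promoter peak, and the 4 pathway genes without any were named after their values were seen. Printed stretches were, per gene, the shared promoter stretch in most libraries or, without one, the shared body stretch, where untranslated bases of GENCODE or RefSeq transcripts, predicted ones included, left at least 50 common bases. Alternatives were other TSS and gene windows, stricter or equally long lists, other assignments of peaks, other denominators, each library left out and a replicate block. The analysis used Python 3.11.15, pandas 2.3.3, NumPy 2.4.6, SciPy 1.17.1 and matplotlib 3.10.9.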

Additional observations from a re-analysis of the deposited data

How the results depend on the processing

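No group difference passed a threshold under any setting, since 2 libraries against 2 allow no exact permutation p below 0.3333. The count of members with a promoter peak in both old WT Cre replicates was 2 and fell to 1 with peaks of q of at most 1e-05, of at least 4-fold enrichment, or in lists of equal length (35638 peaks). That for both young EC-K4KO replicates was 1, fell to 0 under the same 3 settings and rose to 2 with a TSS window of 3000 bp. That for all 4 libraries was 0 and rose to 1 with the window of 3000 bp. With 1 library left out, these counts ran from 2 to 6, from 1 to 6 and from 0 to 2. A count then asked for a peak only in the libraries that were left, so it could stay or rise but not fall. For a group it was the count of its remaining replicate. Old WT Cre replicate 2 and young EC-K4KO replicate 1, the libraries with few promoter peaks at the members, limited the counts. The stretches with peaks in at least 3 libraries numbered 6, and 3 with q of at most 1e-05, 2 with lists of equal length, 2 with a window of 10 kb, 11 with 100 kb, and 2 to 3 with any 1 of the 4 libraries left out. The rule of at least 3 libraries was kept there. A stretch of 3 libraries was therefore lost by rule whenever 1 of its own was left out.

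Of the differences in peaks per 10000 (old WT Cre minus young EC-K4KO), that of Angpt2 kept its direction in every alternative that recomputed it. It ran from 0.362 (q of at most 1e-05) to 1.46 (window of 100 kb), and from 0.708 to 1.21 with 1 library left out. The replicate block leaves the difference as it is, so it could not change the direction. That of Nrp1 reversed to 0.00448 with q of at most 1e-05 and 0.00749 with at least 4-fold enrichment, fell in size to −0.156 with 100 kb, where the groups overlapped, and ran from −0.308 to −0.257 with 1 library left out. Genes whose groups overlapped came to separate under some settings (exact permutation p = 0.3333 each): Tek at 1.12 in lists of equal length, above Angpt2 at 0.701 there, and at 0.572 with 100 kb, Plxnd1 at −0.455 with q of at most 1e-05 and −0.447 with 100 kb, Kdr at −0.269 with at least 4-fold enrichment and Vegfa at −0.162 with 10 kb. Others reversed, all from values whose groups overlapped. With q of at most 1e-05, Kdr gave 0.214, Flt1 −0.245, Flt4 −0.357 and Vegfa 0.255. With at least 4-fold enrichment, Flt1 gave −0.198, Flt4 −0.167 and Vegfa 0.117. In lists of equal length, Kdr gave 0.140, Flt4 −0.421 and Vegfa 0.421. With a window of 10 kb Kdr gave 0.00617, with 100 kb Nrp2 gave −0.103 and Vegfa 0.682, and with peaks assigned to the nearest TSS Tek gave −0.128. With 1 library left out, values ran from −0.259 to 0.0713 (Kdr), −0.248 to 1.13 (Flt1), −0.342 to 0.506 (Flt4), −0.238 to 0.401 (Nrp2), −0.747 to 0.00791 (Plxnd1), −0.334 to 0.302 (Vegfa), −0.0555 to 0.821 (Tek) and −0.576 to 0.162 (Tie1).

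For the highest pileup, Flt1 and Vegfa came to separate as percentiles within a library (−9.66 and −9.24 points, young EC-K4KO higher). In FPM, Tie1 gave −49.2 with a window of 100 kb, where the groups overlapped (exact permutation p = 0.6667). Nrp1 and Tie1 gave −0.230 and −0.798 with the tallest peak taken out of the fragment total, the groups overlapping at both. As percentiles within a library, Nrp1 gave −22.7 points, with the groups overlapping (exact permutation p = 0.6667). Tie1 gave −29.2 points there, and its groups stayed separate (exact permutation p = 0.3333). Kdr reversed to 19.1 percentile points on the scale of percentiles within a library. With 1 library left out, values ran from −0.600 to 0.176 (Kdr), −0.999 to 0.0726 (Nrp2), −0.937 to 0.264 (Plxnd1) and −0.402 to 0.0244 (Angpt2), and each turned positive without young EC-K4KO replicate 2. The cause of these changes was not tested. With the replicate numbers as a replicate block, the Angpt2 difference of 0.958 and the Nrp1 difference of −0.282 gave p = 0.5 in the exact sign permutation, the smallest it allows. Nothing in the labels says that libraries of the same number share an animal or a day.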
